A study of Gallus gallus with 88 samples.

Results

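Breast muscle of broilers at post-hatch day 35 was compared between birds whose eggs had been cooled early in incubation and birds whose eggs had not. The cool group is 8 arrays of birds from broiler eggs (Gallus gallus, a meat-type chicken) held at 36.8 °C on embryonic days 7 to 10. The control group is 8 arrays of birds from eggs held at 37.8 °C throughout. Both were chosen by their titles, and together they are 16 of the 88 arrays of the study. All eggs were at 37.8 °C outside the treatment interval, and after hatching all birds were kept in a barn on a standard diet with free access to feed, per the labels' protocols. The tissue is Musculus pectoralis major, the large flight muscle, and each array is 1 animal per the series design. The labels give no sex and no genetic line. Cool arrays are named below as in the titles, L10 and a number, and controls by their number.

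The 8 controls fall into 2 sets by their place in the sample listing. Controls 68, 70, 81 and 83 stand beside the cool arrays, and controls 29, 30, 77 and 90 stand beside the arrays of birds kept at 38.8 °C. What this order reflects is not given in the sources used here, so results over all 8 controls are in many places also given against the 4 listed beside the cool arrays. By label, 2 of the controls belong to the interval of days 7 to 10 and 6 to that of days 10 to 13. Those of days 7 to 10 are controls 30 and 90, so all 4 controls beside the cool arrays carry the later label. Also used are 8 arrays cooled to 36.8 °C on days 10 to 13 and 8 arrays warmed to 38.8 °C on days 7 to 10, both sampled at day 35, and 8 cool and 8 control arrays sampled at embryonic day 10, when the early interval ended.

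Pectoralis major of the chicken is an almost purely fast-twitch, glycolytic muscle. Its fibres form before hatching in successive waves of myoblasts, driven by the myogenic factors MYOD1, MYF6 and MYOG, and after hatching the fibres grow through fusion of satellite cells, which carry PAX7. Embryos of birds regulate heat poorly, so incubation temperature reaches the forming muscle directly, and thyroid hormone, insulin-like growth factor and myostatin are among the known regulators of its later growth. Values are log2 signals, so a difference of 1 is a doubling, written below as cool minus control.

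The tissue label was checked on marker genes. The mean log2 signal of 4 skeletal muscle markers was 12.9 to 13.2 in the cool arrays, 12.9 to 13.1 in the controls beside them and 13.0 to 13.1 in the other controls. The median log2 signal of an array was 6.36 to 6.61, 6.42 to 6.66 and 6.32 to 6.55 in the same order, and 202 to 435 probe sets of an array read 0, the lowest value in the data. The signal of chromosome W genes, carried by female birds, was above log2 5 in 4 of 8 cool arrays and 4 of 8 controls, so the groups are balanced for it. Each array is bulk tissue, in which fewer cells of a type and less RNA per cell cannot be told apart.

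No probe set passed the test in the cool group against all 8 controls. In limma over 20706 probe sets, 0 were called at an adjusted p of 0.05 (0 percent), the smallest adjusted p was 0.861, and 640 (3.09 percent) had an unadjusted p under 0.05, 1.84 percent higher and 1.25 percent lower. Against the 4 controls listed beside, 0 were called, the smallest adjusted p was 0.145 and 548 (2.65 percent) had an unadjusted p under 0.05. The fit bounds the size of most differences. Against all 8 controls the 95 percent interval lay within 1 log2 unit of 0 for 10925 of 11528 named genes (94.8 percent) and within 0.5 units for 7571 (65.7 percent). Against the 4 controls beside, these shares were 90.7 and 47.5 percent. Over the named genes the median difference was -0.03 and 41.6 percent were higher in the cool group. Against the controls beside, the median was -0.05 and 38.2 percent were higher, and list counts below are to be read beside these shares. The genes below are therefore named for their rank and their values, not as changed genes.

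The cool and control arrays did not overlap in 2 probe sets (0.00966 percent of those tested), of which 1 has a gene name, NELL1. NELL1 encodes a secreted factor known from bone formation in mammals. Its log2 signal was 3.96 at the lowest, 4.07 at the median and 4.59 at the highest in the cool arrays, and 3.04, 3.45 and 3.80 in the controls. Every cool array stood above every control, and arrays L10_145 and L10_51 were nearest to control 29, the highest control. The difference was 0.71 ± 0.19 (SE, n = 8 and 8), with an adjusted p of 1 in limma, and 0.74 against the controls listed beside. These signals are near the low end of the arrays: all 8 controls and 3 cool arrays read below log2 4, and with values under 4 set to 4 the difference was 0.16. Birds cooled on days 10 to 13 had a mean of 4.06 ± 0.27 (SD, n = 8), 0.09 below the early cool group, and birds warmed on days 7 to 10 had 3.72 ± 0.46.

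Among the 12 higher genes with the smallest p, CYP21A1 and TRPV3 differed by about the same amount from both control sets. CYP21A1, the steroid 21-hydroxylase of adrenal hormone synthesis, read 5.45, 5.80 and 6.29 in the cool arrays (lowest, median, highest) and 4.91, 5.37 and 5.63 in the controls, so 7 of 8 cool arrays exceeded every control. It differed by 0.45 ± 0.12 from all controls and by 0.42 from those listed beside. TRPV3, a cation channel that senses warmth in the skin of mammals, read 3.98, 4.44 and 4.72 against 3.53, 3.79 and 4.42, a difference of 0.53 ± 0.15 (0.53 against the controls beside). For TRPV3 the groups overlapped, since control 77 read 4.42 and cool array L10_155 only 3.98. TRPV3 is among the dimmest 30 percent of probe sets by mean signal, with a control median below log2 4. Its difference was 0.34 to 0.64 over the alternatives tried.

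The higher genes stood differently beside the birds cooled on days 10 to 13. CYP21A1 was also 0.45 higher in the early than in the later cool group and TRPV3 0.60 higher, with later cool means of 5.34 and 3.82 beside control means of 5.34 and 3.89. HORMAD1, a protein of meiotic chromosomes, differed by 0.46 ± 0.14 from all controls, 0.56 from those beside and 0.35 from the others, and by 0.00 from the later cool group. GPR141, an orphan receptor, differed by 0.52 ± 0.16 from all controls and by 0.11 from the later cool group. HORMAD1 and GPR141 are, like TRPV3, among the dimmest 30 percent of probe sets. Over the alternatives tried for the contrast with controls, HORMAD1 differed by 0.34 to 0.57 and GPR141 by 0.23 to 0.80. Against the later cool group, 0 of 20706 probe sets passed (limma, smallest adjusted p 1) and 417 (2.01 percent) had an unadjusted p under 0.05, so none of these contrasts between the cool groups is a called difference.

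Of the other higher genes, SLC9A3R1, a membrane scaffold protein, was tight within the cool group, at 7.73, 7.95 and 8.05 against 7.43, 7.65 and 7.92 in controls (0.27 ± 0.08). BMP2, a bone morphogenetic protein, read 5.87, 6.14 and 6.73 against 5.47, 5.86 and 6.30 (0.38 ± 0.12), and the difference was 0.28 against the controls beside and 0.48 against the others. GFAP, an intermediate filament protein of glia, differed by 0.43 ± 0.13 from all controls but by 0.27 from those beside, which stood at 6.98 to 7.28 while the other controls stood at 6.44 to 6.97. SOCS1, a feedback inhibitor of cytokine signalling, had a difference of 1.03 ± 0.33 that rested partly on control 90, which read 0.42 while cool arrays ranged from 3.43 to 5.24. The SOCS1 difference was 0.63 without control 90, 0.70 against the controls beside, and 0.25 with values under log2 4 set to 4. MYO7B, an unconventional myosin, was 0.66 ± 0.22 higher than all controls and 0.37 higher than those beside. Its probe set is among the dimmest 30 percent. Thus GFAP, BMP2, SOCS1 and MYO7B were nearer to the controls that share their place in the listing.

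PCCB had the smallest p of the lower genes. It encodes the beta subunit of propionyl-CoA carboxylase, the mitochondrial enzyme that breaks down propionate from branched-chain amino acids and odd-chain fatty acids. It read 8.92, 9.25 and 9.47 in the cool arrays and 9.45, 9.67 and 9.87 in the controls, so that 6 of 8 cool arrays lay below every control and arrays L10_155 and L10_170 reached the lowest controls. The difference was -0.42 ± 0.11 (SE), 0.749-fold, and -0.44 against the controls beside, with an adjusted p of 1 in limma. Birds cooled later had a mean of 9.28 ± 0.18, close to the 9.24 ± 0.18 of the early cool group, and birds warmed early had 9.63 ± 0.25 (SD, n = 8 each).

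GSTZ1, an enzyme of tyrosine breakdown, was narrow in the cool group and wide in controls, with an SD of 0.23 and 0.85 (n = 8 each). The cool arrays lay together at 7.69, 8.16 and 8.50, whereas the controls ran from 8.29 to 10.52 with a median of 8.88. Controls 29, 83 and 68 read 10.52, 9.99 and 9.75 and came from both listing sets, and the other 5 lay between 8.29 and 9.05. The difference was -1.02 ± 0.29, and -1.10 against the controls beside. The later cool group had 8.20 ± 0.28, as narrow as the early one, and the early warm group 8.74 ± 0.94.

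CACNA1H, a T-type calcium channel subunit, read 3.41, 3.87 and 4.32 in the cool arrays and 3.87, 4.45 and 5.30 in controls. The ranges overlapped, and 4 cool arrays lay below every control. CACNA1H is among the dimmest 30 percent of probe sets, and over the alternatives tried it differed by -0.73 to -0.47. Its difference of -0.63 ± 0.17 was -0.71 against the controls beside and -0.50 against the later cool group, whose mean was 4.41 ± 0.42. EGF, epidermal growth factor, was at 7.61, 8.22 and 8.59 against 8.25, 8.70 and 9.09, and all 4 controls beside the cool arrays stood above all cool arrays, so its difference was -0.51 ± 0.19 over all controls and -0.71 over those beside.

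SMAD6, an inhibitor of bone morphogenetic protein signalling, read 6.72, 7.24 and 7.60 in the cool arrays and 7.34, 7.71 and 7.99 in the controls, a difference of -0.47 ± 0.17 against all and -0.46 against those beside. Every cool array was below the control median, and 5 lay below all controls. CAPRIN2, an RNA-binding protein, differed by -0.50 ± 0.18, and HUS1, part of a DNA damage checkpoint clamp, by -0.39 ± 0.14, each with little change between the control sets. LIN54, a DNA-binding subunit of the DREAM complex that represses cell cycle genes, differed by -0.30 ± 0.10. LATS2, a kinase of the Hippo pathway, differed by -0.29 ± 0.11 and CDK17, a cyclin-dependent kinase, by -0.30 ± 0.11. PPP1R17, an inhibitor of protein phosphatases, differed by -0.47 ± 0.16, and IGDCC4, a surface protein of the immunoglobulin superfamily, by -0.31 ± 0.11. For the last 4 of these genes the difference from the controls beside was smaller, from -0.19 to -0.33.

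**Figure D1:**
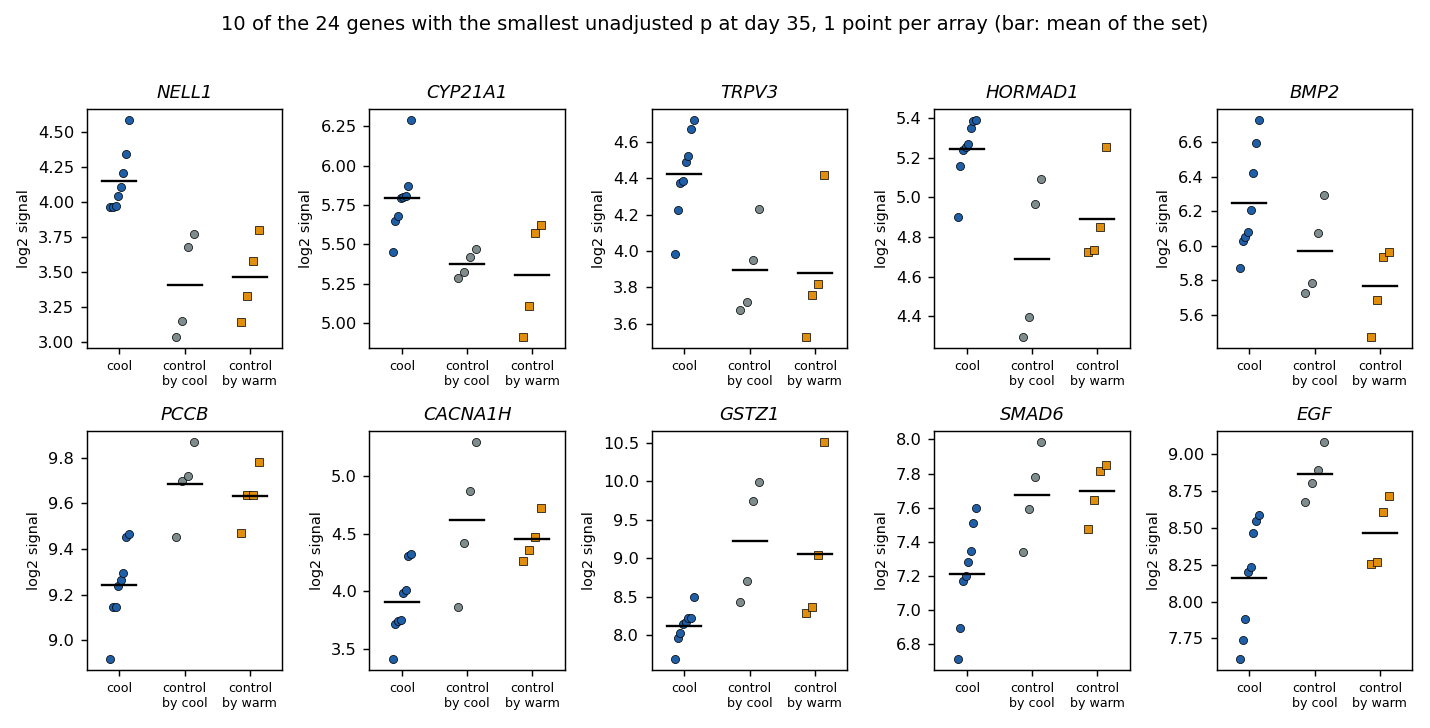
Log2 signal (vertical axis) of 10 of the named genes with the smallest unadjusted p, 1 point per array, for the 8 cool arrays, the 4 controls listed beside them and the 4 controls listed beside the warm arrays, with a bar at each mean. NELL1 alone separates all cool arrays from all controls, GSTZ1 is narrow in the cool arrays and wide in both control sets, and EGF is lower in the cool arrays mainly against the controls listed beside them.

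Against only the 4 controls listed beside, other genes took the top ranks, none with an adjusted p under 1. FSCN2, an actin-bundling protein of the retina, differed by 0.69, a value that includes control 70 at 4.78 while the other 7 controls lay at 6.19 or more, and that was 0.30 without control 70. RGS2, a regulator of G protein signalling, was 0.82 higher than the controls beside, which read 7.17 to 7.48, and -0.04 against the other controls, at 7.97 to 8.55. EPX, a peroxidase of eosinophils, differed by 0.49 and 0.02 in the same order and TSNAXIP1 by 0.64 and 0.28. EPX and TSNAXIP1 are among the dimmest 30 percent of probe sets. Of the lower genes, MORC1, a germ line chromatin protein, had -0.45 and 0.04, ADAMTS17, an extracellular protease, -0.66 and -0.05, and RARS, the arginyl-tRNA synthetase, -0.35 and -0.09. RGS2, EPX, MORC1 and ADAMTS17 thus stood apart from 1 control set and at the level of the other.

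Of the named microRNA genes, 168 had a mean under log2 4. MIR367 read 0.00 in every control but control 77, at 0.30, and 0.00 to 1.18 in the cool arrays. MIR10A had a median of 1.24 in the cool arrays and 0.00 in the controls. Both lie at the floor of the arrays, so the size of their differences, 0.40 and 0.82, cannot be read as a fold change, and both differences were 0 once values under log2 4 were set to 4. MIR30A, at 4.84, 5.37 and 5.96 against 3.91, 4.70 and 5.93, differed by 0.59 ± 0.26 from all controls and by 0.997 from those beside. MIR30A is also among the dimmest 30 percent of probe sets.

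The genes that build the muscle differed little. Of 17 measured fast and common sarcomere genes, 7 were higher and 10 lower in the cool group, none passed the test (background 0 percent called) and the median difference was -0.02, beside -0.03 over all named genes. ACTN2, the Z-disc actinin, read 13.05, 13.15 and 13.33 against 13.12, 13.28 and 13.38, a difference of -0.08 ± 0.07, and CAPZA2, an actin-capping protein of the Z-disc, had -0.12 ± 0.11. MYH1B, a fast myosin heavy chain, varied from 7.43 to 10.60 in the cool arrays and from 7.96 to 10.72 in controls. Its difference was 0.10 with a 95 percent interval of -0.85 to 1.06, so differences within that range are not excluded for this gene. The groups overlapped in each of these genes, as in all probe sets tested but 2 (0.00966 percent).

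Regulators of myogenesis were also close. PAX7 read 7.90, 8.32 and 8.47 in the cool arrays and 8.08, 8.30 and 8.47 in controls, and its difference of -0.05 had an interval of -0.24 to 0.15. MYOD1 differed by -0.06 (-0.35 to 0.24), MYOG by 0.07 (-0.19 to 0.33) and MYF6 by -0.15 (-0.40 to 0.11). Myostatin, MSTN, the inhibitor of muscle growth, had an interval of -0.60 to 0.71 and a difference of 0.06 that became -0.48 against the controls beside. CHRNG, an acetylcholine receptor subunit of fetal muscle, differed by 0.41 from all controls and by -0.09 from those beside. Of the 18 genes of this list 8 were higher and 10 lower, with a median of -0.01. The sign for MSTN and CHRNG therefore depended on which controls were used.

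Growth factor and thyroid hormone genes were split, 12 higher and 15 lower of 27, with a median of -0.02. IGF1 read 6.92, 7.48 and 8.24 against 6.48, 7.47 and 7.98, a difference of 0.02 (-0.51 to 0.55), and its receptor IGF1R differed by 0.04 (-0.20 to 0.28). DIO2, the deiodinase that activates thyroid hormone, differed by -0.27 ± 0.22, and DIO3, the one that inactivates it, by 0.27 ± 0.26. The probe set of DIO2 is among the dimmest 30 percent. PPARGC1A, a coactivator of mitochondrial genes, had -0.23 ± 0.18 over all controls and 0.04 over those beside. Of the temperature genes, the cold-induced RNA-binding protein RBM3 read 9.13, 9.54 and 9.85 against 9.10, 9.65 and 9.95 (-0.11 ± 0.17). The chaperone HSPA8 differed by 0.08 ± 0.14, CCT2, a chaperonin subunit, by -0.15 ± 0.12 and HSPB8, a small heat shock protein, by -0.23 ± 0.16, and 7 of 20 heat shock and chaperone genes were higher and 13 lower. NFKBIA, an inhibitor of NF-kappaB, was listed with the cold-responsive genes and was above the control median in all 8 cool arrays (0.24 ± 0.14).

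**Figure D2:**
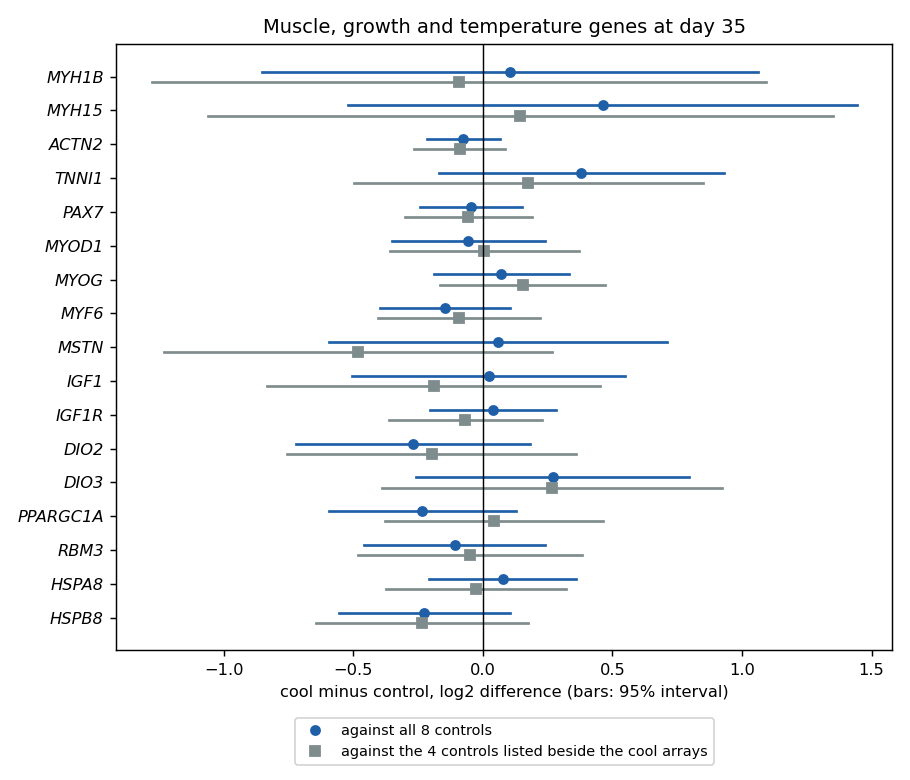
Difference of cool minus control on the log2 scale (horizontal axis) with its 95 percent interval for 17 genes of muscle, growth and temperature response, against all 8 controls (circles) and against the 4 listed beside the cool arrays (squares). All 34 intervals span 0, and they are narrow for ACTN2 and PAX7 and wide for MYH1B, MYH15 and MSTN.

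Genes of slow, cardiac and embryonic muscle and of mechanical load varied strongly from bird to bird within the cool group. CSRP3, a Z-disc protein of slow and cardiac muscle, ran from 4.37 in cool array L10_153 to 10.68 in cool array L10_76, with a median of 7.55, and from 3.04 to 8.04 in controls. The SD of CSRP3 was 1.89 in the cool arrays and 1.52 in the controls. It was 2.41 in the later cool and 2.56 in the early warm arrays, so this spread was not particular to the cool group. The CSRP3 difference was 1.33 ± 0.96 over all controls and 0.57 over those beside. Array 76 was also the highest cool array for MYH15, the ventricular-type slow myosin of the chicken, at 8.35, and for TNNI1, slow troponin I, at 8.04, and array L10_153 was the lowest for each of the 3 genes. Over the 14 genes of the slow, cardiac and embryonic list the array mean was 7.39 to 9.52 in the cool arrays, 7.96 to 8.63 in the controls beside and 7.17 to 8.37 in the others. Of the 14, 11 were higher than all controls (median 0.11) and 7 were higher than those beside (median 0.01).

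The muscle load and damage list shares CSRP3 with the slow list, so it is not a separate observation of this spread. The load list mean was 10.92 in array L10_76 and 8.89 in array L10_153. This list was higher in 8 of 13 genes over all controls (median 0.10) and in 5 of 13 over those beside (median -0.12). ANKRD1, a stretch-induced ankyrin repeat protein, was 1 of the 5 lower genes, at 10.73, 11.90 and 12.91 against 11.60, 12.14 and 13.04 (-0.35 ± 0.28, and -0.69 against the controls beside). Single arrays moved both medians. The slow list median was 0.22 without array L10_153, 0.21 without array L10_145, 0.18 without control 30 and 0.08 without array L10_76. The load list median was 0.24 without array L10_153, -0.02 without array L10_76 and -0.01 without control 29. The CSRP3 difference was 0.88 without array L10_76 and 0.89 without control 29.

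**Figure D3:**
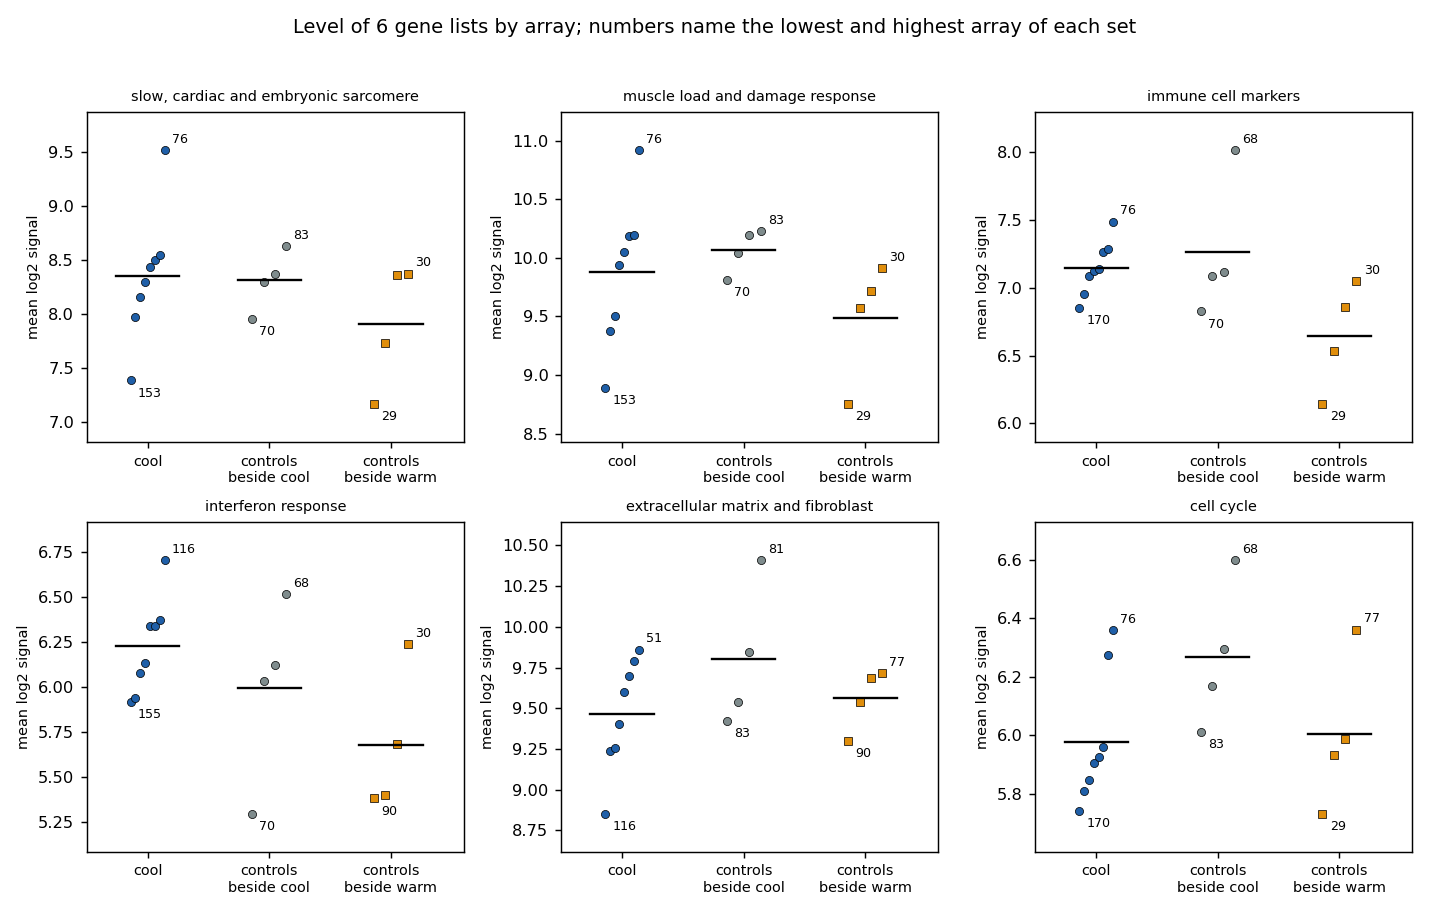
Mean log2 signal (vertical axis) of 6 gene lists in each array, for the 8 cool arrays, the 4 controls listed beside them and the 4 listed beside the warm arrays, with a bar at each mean and numbers at the lowest and highest array. Cool array L10_76 is the highest of its set in the muscle lists, the immune list and the cell cycle list, control 68 is the highest for immune and cell cycle genes, and control 81 is the highest for extracellular matrix.

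Connective tissue genes were lower in count but by little. Of 21 extracellular matrix and fibroblast genes 20 were lower in the cool group and 1 higher, with 0 past an unadjusted p of 0.05 and a median of -0.12. Against the controls beside 19 were lower (median -0.18). The array mean was 8.85 to 9.86 in the cool arrays, 9.43 to 10.41 in the controls beside and 9.30 to 9.72 in the others. LOX, the collagen cross-linking enzyme, read 9.27, 9.50 and 9.90 against 9.49, 9.84 and 10.56 (-0.39 ± 0.20). It was -0.42 against the controls beside and -0.36 against the others. COL12A1, a collagen of tendon and fascia, differed by -0.77 ± 0.56, but control 81 alone read 10.40 where the other 15 arrays lay between 5.34 and 8.37, and the COL12A1 difference was -0.34 without it. TNMD and FMOD, genes of tendon chosen after their values were seen, were likewise highest in control 81, at 11.1 and 10.1. Without control 81, 17 of 21 were lower and the median was -0.08, and without cool array L10_116, which was the lowest at 8.85, 14 were lower and the median was -0.05.

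Cell cycle genes showed a similar count. Of 22, 19 were lower than in all controls (median -0.14), 22 were lower than in the controls beside (median -0.22) and 12 were lower than in the other controls (median -0.03). MKI67, a marker of dividing cells, read 5.94, 6.49 and 7.22 against 6.15, 7.19 and 7.93, a difference of -0.49 ± 0.32, and TPX2, a spindle assembly factor, 6.94, 7.50 and 8.13 against 7.56, 7.93 and 8.34 (-0.32 ± 0.16). MKI67 was highest in control 68, and without that array the median of the list was -0.07 with 18 genes lower. In birds cooled later the levels were like those of the early cool group, with differences of 0.03 for MKI67 and 0.04 for TPX2. Genes of chromatin and DNA methylation were lower in 19 of 22 (median -0.09), among them HDAC4, a histone deacetylase of muscle, at -0.14 ± 0.08, and KDM6A, a histone demethylase, at -0.15 ± 0.09. No gene of either list passed the test.

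Immediate early genes, which respond within minutes to stimuli, including handling, were lower in 12 of 15 (median -0.16, and -0.25 against the controls beside). KLF2, a transcription factor induced by flow, read 7.04, 7.46 and 8.07 against 7.30, 7.95 and 8.21 (-0.33 ± 0.16), and -0.09 against the other controls. ATF3, a stress-induced factor, had -0.39 ± 0.32, with 4 cool arrays on either side of the control median.

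Energy genes depended on the control set. Of 37 oxidative phosphorylation and citrate cycle genes 33 were lower than in all controls (median -0.10), but 23 were lower than in the controls beside (median -0.02) and the median was -0.19 against the other controls. Without control 90, 26 were lower and the median was -0.06. ATP5O, a subunit of ATP synthase, read 9.65, 10.13 and 10.29 against 9.95, 10.27 and 10.65 (-0.30 ± 0.12, and -0.17 against those beside), and NDUFS1, of complex I, differed by -0.23 ± 0.10 and -0.13. ETFDH, which passes electrons from fatty acid oxidation, differed by -0.26 ± 0.12 and -0.19, while the fatty acid transporter SLC27A1 had 0.28 ± 0.20 and 0.09. Of 19 glycolysis and glycogen genes 6 were higher and 13 lower (median -0.03), with SLC2A12, a glucose transporter, at -0.22 ± 0.12 and PPP1R3A, the glycogen-targeting phosphatase subunit of muscle, at -0.15 ± 0.11. The list for making sterols and fatty acids holds 15 measured genes, of which 7 read higher and 8 lower (median -0.06), 2 were higher and 13 lower against the controls beside (median -0.18), and the median was 0.03 without control 81. Within this list ME1, malic enzyme, and INSIG1, a brake on sterol synthesis, differed by -0.32 ± 0.14 and -0.43 ± 0.21, and every cool array was below the control median of INSIG1.

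Genes of the oxidative stress response were split, 6 higher and 10 lower of 16. NQO1, a quinone reductase, was above the control median in 8 of 8 cool arrays (0.29 ± 0.13), but by 0.07 against the controls beside and 0.51 against the others. GCLM, a subunit of the enzyme that starts glutathione synthesis, was lower, by -0.30 ± 0.14 and by -0.38 against those beside.

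The sign for immune genes depended on the controls. Of 21 immune cell markers 16 were higher than in all controls (median 0.19), 6 were higher than in those beside (median -0.18) and the median was 0.49 against the other controls. Over all controls the median was 0.34 without control 68, 0.09 without control 29 and 0.13 without array L10_76. The array mean was 6.85 to 7.49 in the cool arrays, 6.83 to 8.02 in the controls beside and 6.14 to 7.05 in the others, so the cool arrays lay inside the range of the controls that share their listing. The 3 defining immune markers followed, at 8.45 to 9.06, 8.59 to 10.03 and 7.40 to 8.84 in the same order, and their part in the result was not tested. JCHAIN, the joining chain of secreted antibodies, read 8.90, 9.31 and 9.70 in the cool arrays and 6.89, 8.50 and 10.56 in controls (0.80 ± 0.41, and 0.24 against those beside). TLR2, a receptor for bacterial lipoproteins, was above the control median in all cool arrays (0.65 ± 0.37), with control 68 the highest of the 16 at 6.60. TLR2 is among the dimmest 30 percent of probe sets.

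Interferon-response genes kept their sign. Of 10, 9 were higher than in all controls (median 0.22) and 8 higher than in those beside (median 0.14), and 0 passed an unadjusted p of 0.05. Without control 68 all 10 were higher and the median was 0.36. Without control 90, and without control 70, 9 were higher and the median was 0.18. With values under log2 4 set to 4, 8 were higher and the median was also 0.18. IFIT5, an antiviral RNA-binding protein, read 5.84, 6.67 and 7.79 against 4.38, 5.61 and 6.88, with all 8 cool arrays above the control median and a difference of 1.05 ± 0.60, and 0.64 against the controls beside. IFIH1, a sensor of viral RNA whose probe set is among the dimmest 30 percent, differed by 0.26 ± 0.19. The list mean ran from 5.29 in control 70 to 6.51 in control 68, and from 5.92 to 6.70 in the cool arrays. Array L10_116 held the highest cool value, and birds cooled later differed by a median of 0.01.

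The 8 measured erythroid markers were all higher in the cool group, against all controls (median 0.24) and against those beside (median 0.19), and 1 of them, SLC4A1, the anion exchanger of the red cell membrane, had an unadjusted p under 0.05. SLC4A1 read 5.85, 6.24 and 6.46 against 5.57, 5.97 and 6.15 (0.29 ± 0.11). HBE, an embryonic-type globin in the annotation, read 4.65, 5.59 and 5.71 against 4.44, 5.06 and 5.75 (0.33 ± 0.17). The probe set of HBE is among the dimmest 30 percent. The array means still overlapped, at 5.75 to 6.10 in the cool arrays and 5.47 to 5.96 in the controls. Under the other settings tried the median was 0.18 to 0.26, with at most 1 gene lower. With dim probe sets left out only 4 of the 8 genes remained, all higher (median 0.20).

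**Figure D4:**
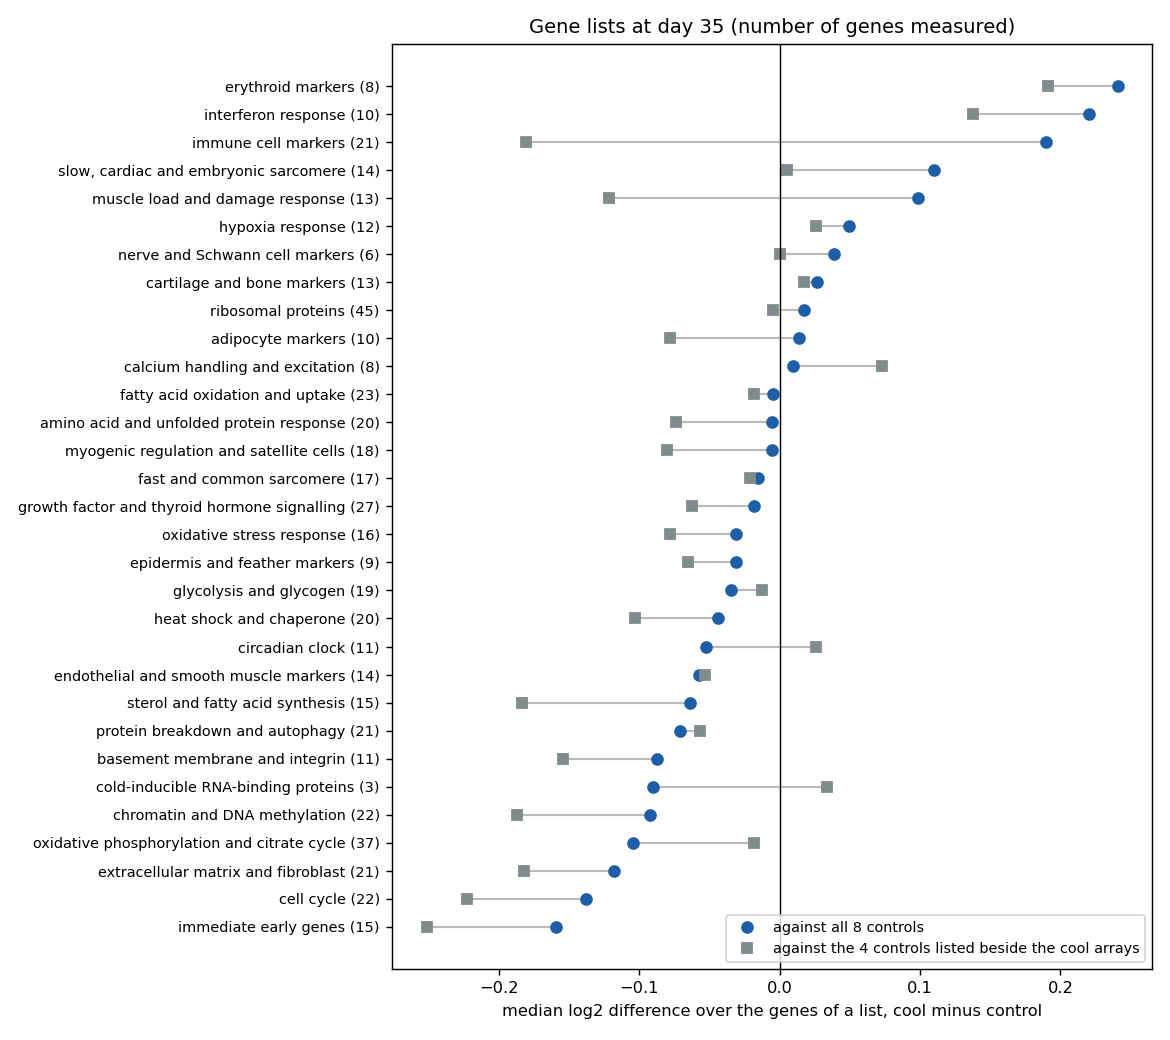
Median log2 difference, cool minus control (horizontal axis), over the measured genes of 31 lists, against all 8 controls (circles) and against the 4 listed beside the cool arrays (squares). Erythroid and interferon genes are above 0 and extracellular matrix, cell cycle, chromatin and immediate early genes below 0 against both, whereas the immune and muscle load lists lie on opposite sides of 0.

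One group of genes had a larger median difference than the other lists, and its sign depended on the listing. Of 14 measured plasma protein genes, whose mRNA is made mainly by the liver, 14 were higher than in all 8 controls (median 2.10), 9 of them with an unadjusted p under 0.05 (1.84 percent of all probe sets) and 0 called. The same 14 had a median of -0.37 against the controls listed beside, with 12 lower, and 4.28 against the other controls, with 9 called, all higher, where 0.188 percent of probe sets were called and 0.184 percent were called higher. The array mean of the list was 6.83 to 10.48 in the cool arrays, 7.39 to 10.43 in the controls beside and 3.94 to 4.64 in the other controls. The 3 defining liver markers read 8.81 to 11.68, 9.34 to 11.72 and 5.23 to 6.33 in the same order. The list mean was 7.05 to 9.77 in the later cool arrays and 3.60 to 6.06 in the early warm arrays. Thus by list mean all 4 controls listed with the cool arrays were at the level of the cool birds, and all 4 others were below all of them. The part of liver or plasma RNA in these samples was not tested.

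ALB, serum albumin, shows the pattern. It read 10.29, 11.89 and 13.34 in the cool arrays, 11.08 to 13.22 in the controls beside and 4.47 to 6.53 in the other controls. Its difference was 3.15 ± 1.01 over all controls, with an adjusted p of 1 in limma, -0.27 over those beside and 6.56 over the others. FGA, the fibrinogen alpha chain, read 7.06, 9.30 and 11.81 in the cool arrays, 8.01 to 12.10 in the controls beside and 1.60 to 3.31 in the others. APOB, the main protein of low-density lipoprotein, was at 0.00 to 2.93 in the other controls and at 4.37 or more elsewhere among the 16 arrays, and AMBP, a plasma protease inhibitor precursor, at 1.26 to 3.01 against 5.53 or more.

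Levels of these genes also varied within the cool group. Arrays L10_145 and L10_51 had the highest list means, 10.48 and 10.01, and arrays L10_116 and L10_170 the lowest, 6.83 and 6.98. FGA spanned 11.81 in array L10_145 to 7.06 in array L10_116, and ALB 13.34 in array L10_145 to 10.29 in array L10_170. TTR, the thyroid hormone carrier of plasma, stands in both the plasma protein list and the growth factor list, so it is not a separate observation. It differed by 1.93 ± 0.71 from all controls and by 0.09 from those beside. PHGDH, of serine synthesis and from another list, differed by 0.60 ± 0.49 and -0.37, and stood at 9.50 in cool array L10_145.

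**Figure D5:**
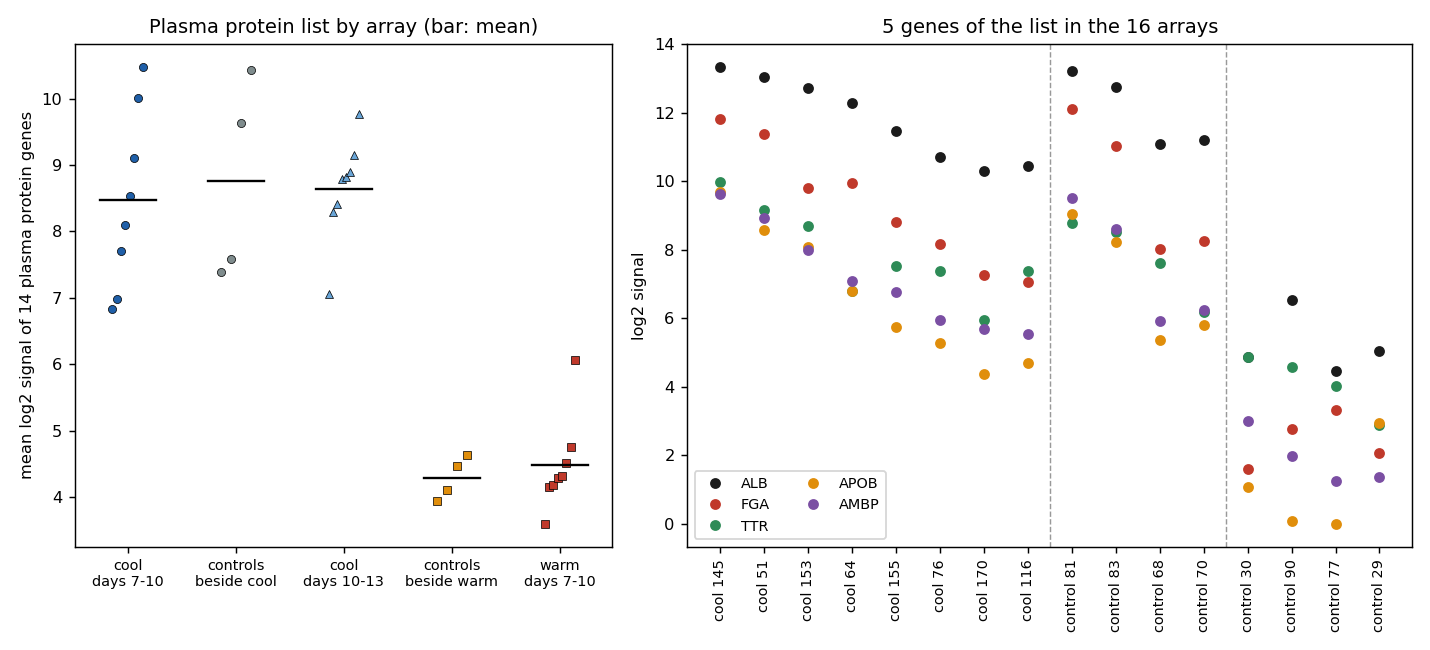
Left, mean log2 signal of 14 plasma protein genes in each array of 5 day 35 sets, with a bar at each mean. Right, log2 signal of 5 of these genes in the 16 arrays, ordered by list mean within each set and divided by dashed lines into cool arrays, controls listed beside them and controls listed beside the warm arrays. The 12 arrays that share the listing of the cool group are all above the 4 other controls.

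The contrast of the early cool with the early warm group was led by genes of liver and plasma proteins. Of 20706 probe sets 61 passed (0.295 percent), 60 higher (0.290 percent) and 1 lower in the cool group, and with quantile normalization the split was 36 higher and 9 lower. Warm array H10_11 read 0 in 873 probe sets, the most of any day 35 array, and the contrast was not repeated without it. SULT6B1L, a sulfotransferase, had a mean of 6.74 ± 1.67 in the cool and 0.54 ± 1.37 in the warm group (6.20 ± 0.94 SE, limma adjusted p 0.00107). AMBP differed by 5.97 and ALB by 6.53 at the same adjusted p. APOB, at 6.00, CYP2AC1, a cytochrome P450, at 4.20, and KNG1, kininogen, at 4.70, each had an adjusted p of 0.00200. The sizes are not fold changes, because all 8 warm arrays read below log2 4 for SULT6B1L, APOB and KNG1, 7 for AMBP and 6 for CYP2AC1. With values under 4 set to 4, an alternative chosen after seeing the data, 31 probe sets passed, 29 higher and 2 lower. SULT6B1L then differed by 2.74 (adjusted p 0.0599), APOB by 2.65 (0.0805) and KNG1 by 2.76 (0.0715), none past the threshold, while AMBP, at 3.05 (0.0304), CYP2AC1, at 3.61 (0.0124), and ALB, at 6.18 (0.00616), passed in limma. The lower gene was TSNARE1, of the syntaxin family, at 6.26 ± 0.34 against 6.90 ± 0.26 (-0.64 ± 0.14, adjusted p 0.0310), and -0.12 between the control sets.

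The control sets differ from each other in 34 probe sets (0.164 percent), 33 higher (0.159 percent) and 1 lower in the controls beside the cool arrays. These controls and the treated birds share no array. Of the 60 probe sets higher in cool than in warm birds, 27 were among the 33, which is 45 percent of the first list and 81.8 percent of the second. Between the control sets 53 of the 60 were higher as well, beside 55.5 percent of all named genes. The temperature groups and the listing sets coincide, so in the contrast of cool with warm birds the 2 cannot be told apart.

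Differences of the gene lists at embryonic day 10, at the end of the cool interval, are set beside those at day 35. At embryonic day 10, 0 of 20706 probe sets passed in limma and 1037 (5.01 percent) had an unadjusted p under 0.05, with a smallest adjusted p of 0.324. Over all named genes 43 percent were higher then, with a median of -0.02. Extracellular matrix genes were lower in 19 of 21 then (median -0.06) and in 20 of 21 at day 35 (median -0.12). Chromatin genes were lower in 18 of 22 (median -0.11) and 19 of 22 (median -0.09). Immediate early genes were lower in 13 of 15 (median -0.03) and 12 of 15, and clock genes in 11 of 11 (median -0.11) and 8 of 11. Other lists that were uneven at day 35 were split in the embryo. Cell cycle genes were lower in 9 of 22 then and in 19 of 22 at day 35. Interferon-response genes were higher in 4 of 10 and 9 of 10, and erythroid markers in 4 of 8 and 8 of 8. Oxidative phosphorylation genes were higher in 32 of 37 at embryonic day 10 (median 0.04) and in 4 of 37 at day 35 (median -0.10). Against the controls beside at day 35, 14 of 37 were higher (median -0.02). The embryo controls are listed partly beside warm and partly beside cool embryos, and were not split by listing. Of the sarcomere genes, MYH1B differed by -0.37 ± 0.13 in the embryo and by 0.10 at day 35, and 14 of 17 fast sarcomere genes were lower in the embryo against 10 of 17 later.

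Single genes named for day 35 were read at embryonic day 10 as well. NELL1 differed by -0.07 in the embryo, PCCB by 0.10, GSTZ1 by 0.06, CACNA1H by 0.09, CYP21A1 by 0.01 and SMAD6 by -0.06. LIN54 differed by -0.11 and LATS2 by -0.15. ALB differed by -0.32 and FGA by -0.08 in the embryo, where the plasma protein list was higher in 7 of 14 genes with a median of 0.02.

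Other lists had medians close to that of all named genes, without a call. Of 8 calcium handling genes 6 were higher (median 0.01), of 23 fatty acid oxidation genes 10 (median -0.01), of 21 genes of protein breakdown and autophagy 7 (median -0.07), and of 11 clock genes 3 (median -0.05, and 0.03 against the controls beside). Among markers of other tissues, 4 of 14 endothelial and smooth muscle genes were higher (median -0.06), 7 of 13 cartilage and bone genes (median 0.03), 4 of 6 nerve genes (median 0.04) and 4 of 9 epidermis genes (median -0.03).

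Between the early and the later cool group, the muscle load list and the ribosomal list had uneven counts. Over all named genes 52 percent were higher in the early cool group (median 0.01). Later cool array L13_122 had the highest median log2 signal of the day 35 arrays, 6.76, and the contrast was not repeated without it. Of 45 ribosomal protein genes 2 were higher in the early cool group (median -0.13), whereas against controls 29 were higher (median 0.02), and none passed the test. Muscle load genes were lower in all 13 (median -0.19) and slow, cardiac and embryonic sarcomere genes higher in 5 of 14 (median -0.21). CHRNG was lower by 0.92 in the early cool group than in the later one, with an adjusted p of 1 in limma.

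The spread between birds is given here without a test. The median SD over 11528 named genes was 0.285 in the cool arrays, 0.294 in the controls, 0.309 in the later cool arrays and 0.280 in the warm arrays. An SD above 1 was held by 186 genes (1.61 percent) in the cool group and 194 (1.68 percent) in the later cool group. The count was 276 (2.39 percent) in the controls and 419 (3.63 percent) in the warm group. It was 296 (2.57 percent) in the 4 controls beside the cool arrays and 204 (1.77 percent) in the 4 others. The warm group includes array H10_11, whose median correlation with the other day 35 arrays, 0.901, was the lowest. The warm spread was not computed without it. Genes were ranked by their spread in the cool group only where no cool array read below log2 4. Among those that varied most, chosen after their values were seen, were the plasma proteins SPP2 (SD 2.48) and HPX, hemopexin (SD 2.30). Both varied more in the controls (SD 2.80 and 3.31). Controls 68 and 70, listed beside the cool arrays, read 6.83 and 5.84 for SPP2 and 5.92 and 5.85 for HPX. The controls beside the warm arrays read 5.78 to 6.56 and 5.08 to 6.26. SPP2 read 13.3 in array L10_145 and 6.37 in array L10_170. ITGB1BP3, a muscle gene of the nicotinamide riboside kinases, read 4.74 in cool array L10_155 and 9.65 to 11.2 in the other 15 arrays. BF2, a class I gene of the major histocompatibility complex, ran from 5.76 to 10.6 in the cool arrays and from 4.80 to 10.5 in the controls, with high and low birds in both groups.

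The chromosome W signal did not bring out further calls. In the 4 cool against 4 control arrays with a high signal 0 probe sets passed in limma and 842 (4.07 percent) had an unadjusted p under 0.05. In the arrays with a low signal 0 passed and 686 (3.31 percent) did. The difference of the cool effect between the signal classes gave 0 calls and 778 (3.76 percent) at an unadjusted p under 0.05. MYH1B differed by -0.67 in the first class and TNNI1 by -0.30, opposite in sign to the 16 arrays together, and neither difference was called.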

How the data were processed

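The values the authors deposited, 1 for each probe set on each array, were taken as log2 signal from their range of 0 to the mid teens. Labelled cRNA was hybridised to 1-colour Affymetrix arrays. GCOS 1.1.1 is named in the submitters' processing notes, and the summarisation and normalization steps were not stated. Symbols are those of the platform annotation, brought up to date by Entrez identifier: 12300 probe sets had 1 symbol, 256 several and 8150 none. Where a gene had several probe sets, the one with the highest mean was used. No pair of arrays held identical values.

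All 40 day 35 arrays in 5 groups entered 1 model in limma 3.58.1 (R 4.3.3), 2-sided, with Benjamini-Hochberg adjustment over 20706 probe sets after 98 control probe sets were left out. For the control sets, the controls were 2 groups. The 48 embryo arrays were fitted apart. The model was tested on simulated data. The p-values set a difference of group means against the spread between arrays within groups, estimated over all groups of a fit. The number of arrays limits precision.

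Genes named are the 12 higher and 12 lower with the smallest p against all controls, 6 and 6 against the controls beside, up to 2 per list, a fixed set of muscle and temperature genes, up to 6 per direction in other contrasts, and microRNA genes at an unadjusted p under 0.01. Of the fixed set, CIRBP, HSP90AA1, DNMT1 and DNMT3A were not analysed here. Lists are described by counts and medians. The members and lists were chosen with earlier results of these data known. Alternatives are in the closing section.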

Additional observations from a re-analysis of the deposited data

Results flagged for a closer look

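Single arrays far from the rest of their group, by gap over range in groups of 8, were found for 7 of the 89 named genes examined, each in 1 of 2 groups. The cut used marks about 1 in 20 groups of normally distributed values. Many of these genes were chosen for a small p in the same arrays, and some lie at the floor. That rate is therefore no reference for the count, and whether the 7 marks exceed chance was not tested. MYOD1 read 10.40 in control 90 and 9.96 in the next control. CDK17 read 10.02 in control 30 and 9.68 in the next. TLR2 read 6.60 in control 68, where immune genes were high, and 4.73 in the next. FSCN2 read 4.78 in control 70 and 6.19 or more in the others, CCT2 8.98 in control 29 and 9.36 or more in the others, and HBE 4.65 in cool array L10_51 and 5.29 or more in the others. MIR367 read 0.30 in control 77 and 0 in the other controls.

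The early cool group differed from the early warm group in 61 probe sets, tested as 1 contrast within the fit of all 5 groups. Plasma protein genes lead them, the 2 temperatures stand in different listing sets, and liver-derived or plasma RNA in the samples was not tested.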

How the results depend on the processing

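Against all 8 controls the count of called probe sets was 0 under each alternative tried except the use of only the 4 controls listed beside the warm arrays, which gave 39 (limma). Leaving out each array in turn gave 0 to 0, with 427 to 1037 probe sets at an unadjusted p under 0.05. With array weights there were 0 calls, the smallest adjusted p was 0.0578, and 1032 probe sets had an unadjusted p under 0.05. Against the 4 controls beside, quantile normalization gave 1 call, of a probe set without a name, and leaving out each array gave 0 to 1, with 1 unnamed call without cool array L10_51 and 1 without control 83. The count of cool against warm was 61, 25 without dim probe sets and 31 with values under 4 set to 4, the last chosen after seeing the data, and that between the control sets 34 and 18. The cause was not tested.

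Of 2651 alternatives for 89 named genes, 2590 kept the direction. Some of them, such as fitting only the 2 groups or leaving out dim probe sets, leave a gene's difference unchanged by construction. A difference of 0 was counted as kept. Many others leave out only 1 array, so the count is not a test of how firm a direction is. With only the controls beside the cool arrays the sign turned for ALB (-0.27), HSPA8 (-0.027), MYOD1 (0.0065), MSTN (-0.48), IGF1 (-0.19), IGF1R (-0.067), PPARGC1A (0.043), MYH1B (-0.093), SULT6B1L (-0.36), AMBP (-0.38), APOB (-0.46), CYP2AC1 (-0.36), KNG1 (-0.43), FGA (-0.57), CHRNG (-0.087) and PHGDH (-0.37). With only the 6 controls of days 10 to 13 it turned for HSPA8 (-0.016), MYOD1 (0.0084), MSTN (-0.13) and MYH1B (-0.12). With the plasma protein signal as a covariate, chosen after seeing the data, it turned for HSPA8 (-0.038), PAX7 (0.0059), MYOD1 (0.019), MSTN (-0.24), IGF1 (-0.19), MYH1B (-0.11), AMBP (-0.0054), APOB (-0.013), CYP2AC1 (-0.15), KNG1 (-0.34) and PHGDH (-0.41). In arrays with a high chromosome W signal, also chosen after seeing the data, it turned for MYOG (-0.051), MSTN (-0.058), IGF1 (-0.26), MYH1B (-0.67), MYH15 (-0.17), TNNI1 (-0.30) and PPP1R3A (0.029), and in those with a low signal for PAX7 (0.073), DIO2 (0.0056), HBE (-0.059) and KLF2 (0.020). Quantile normalization turned PAX7 (0.0031), array weights MSTN (-0.12) and the controls beside the warm arrays MYOG (-0.011). Leaving out single arrays gave -0.081 to 0.0017 for PAX7, -0.16 to 0.022 for MYOD1, -0.17 to 0.21 for MSTN, -0.11 to 0.10 for IGF1, -0.016 to 0.082 for IGF1R and -0.099 to 0.35 for MYH1B.

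Of 896 alternatives for list medians, 2 moved by more than the spread between arrays, both for plasma proteins, at -0.37 and 4.28 with either control set alone. Here too some alternatives, such as fitting only the 2 groups, leave the median unchanged by construction. The lowest and highest medians lay on opposite sides of 0 for 21 of the 32 lists, among them muscle load (-0.12 to 0.24), immune (-0.18 to 0.49), myogenic (-0.080 to 0.10) and heat shock (-0.11 to 0.056). No paired analysis was possible because the label numbers are not shared between the groups compared. The number of arrays and signals near the floor limit what can be detected.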
